A study of Mus musculus with 6 samples.

Results

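The integrins of leukocytes were examined in RNA from mouse tumors. The 10 genes were chosen by symbol (Itgam, Itgal, Itgax, Itgb2, Itga4, Itga5, Itgb1, Itgav, Itgb3 and Itgb5), and all 10 were found among the 22377 genes of the count table and passed edgeR's filter on low counts, which kept 13884 genes. The series holds 6 libraries, each labelled as a separate biological sample, with 3 labelled wt (wt1, wt2 and wt3) and 3 labelled ko in their titles and knockdown as their treatment (ko1, ko2 and ko3). The labels give no genotype. The paper describes sorted CD45+ CD11b+ F4/80+ cells from subcutaneous tumors of LLC, the Lewis lung carcinoma line, in young adult Npm1+/+ and Npm1+/- mice of both sexes, where 1 allele of Npm1 (nucleophosmin, a nucleolar chaperone) is lost in the whole animal and not in macrophages alone. The labels instead name tumor tissue, TRIzol extraction and a small RNA library, and the difference was not resolved here. For a heatmap of these data the paper names fewer mice per group than there are libraries, so whether each library came from a separate animal is not known.

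Integrins are cell surface receptors made of 1 alpha and 1 beta chain, which tie the matrix or another cell to the actin cytoskeleton. The alpha chain largely sets the ligand, and a chain without a partner is poorly carried to the surface. In leukocytes the beta chain Itgb2 (CD18) pairs with Itgal (CD11a) for adhesion to ICAMs, with Itgam (CD11b) for adhesion and complement uptake, and with Itgax (CD11c). Itgb1 pairs with Itga4, which binds VCAM-1 and fibronectin, and with Itga5, the classical fibronectin receptor. Itgav pairs with Itgb3 or Itgb5 to bind vitronectin and other RGD proteins. The product of Itgam is CD11b, 1 of the proteins of the sort that the paper describes, so if these libraries came from that sort, its level was measured in cells selected for it.

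Total counts ranged from 36550775 to 38147320. The lowest count of any of the 10 chains was 328 (Itgb3 in wt2). A count of 0 allows up to 3 counts, or 0.0716 to 0.0846 CPM (a gene's count relative to its library size), for counting error only. CPM values below were scaled between libraries by the TMM method. Npm1, the targeted gene, stood at 142, 380.2 and 381 CPM in wt1, wt2 and wt3 and at 441, 499 and 343 in ko1, ko2 and ko3. Its mean was higher, not lower, under the ko label (log2 fold change 0.51, SE 0.36, adjusted p = 0.436, and 0.16 without wt1, its lowest library), and directions below are those between libraries as labelled. The library wt1 stood apart, at -108 on the first principal component against -4.54 to 52.0 in the others. Its summed fibroblast markers were 63.3 CPM against 456 to 1067 in the others. Its summed epithelial or carcinoma markers (8 of 11 in the table) were also the lowest, at 36.7 CPM against 80.8 to 192. The macrophage markers (12 of 12 in the table, none at 0 in any library, Csf1r, Cd68 and Adgre1, the gene of F4/80, included) summed to 12955 to 18803 CPM in the wt libraries and to 7730 to 12948 in those labelled ko. The neutrophil markers summed to 2004 to 2233 and 903 to 1741 CPM, and those of T and NK cells to 62.3 to 158 and 126.5 to 356. The part of these shifts in the results below was not tested, and in bulk RNA fewer cells of a type and less RNA per cell cannot be told apart.

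Per length, Itgam and Itgb2 of the beta2 family were the most abundant chains. In FPKM, which divide a count by the gene's length and the library total, Itgam averaged 514 over the 6 libraries and Itgb2 349, with Itgam above Itgb2 in 6 of 6 libraries although their ranges met (365 to 593 and 254 to 455). Itgb1 followed at 132, a level below the lowest of Itgb2 in all libraries. Itgal at 84.1 was below Itgb1 in 5 of 6 libraries, the exception being wt1. Itgal and Itga5 (70.7) were in this order in only 3 of 6 libraries and did not differ beyond their spread. Itgax stood at 27.2, below Itga5 without overlap. Itgax, Itgb5 (21.7) and Itga4 (21.2) could not be ordered, since Itgb5 exceeded Itga4 in 2 of 6 libraries and Itgax exceeded Itgb5 in 5. Itgav at 14.2 was below Itga4 in 6 of 6 libraries, and Itgb3 was the least abundant at 2.79. The gene length implied by counts and FPKM was 13214 bases for Itga4, against 2974 (Itgb2) to 7000 (Itgav) for the other chains. The place of Itga4 in this order, and its ratios to other chains below, rest on that length.

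**Figure D1:**
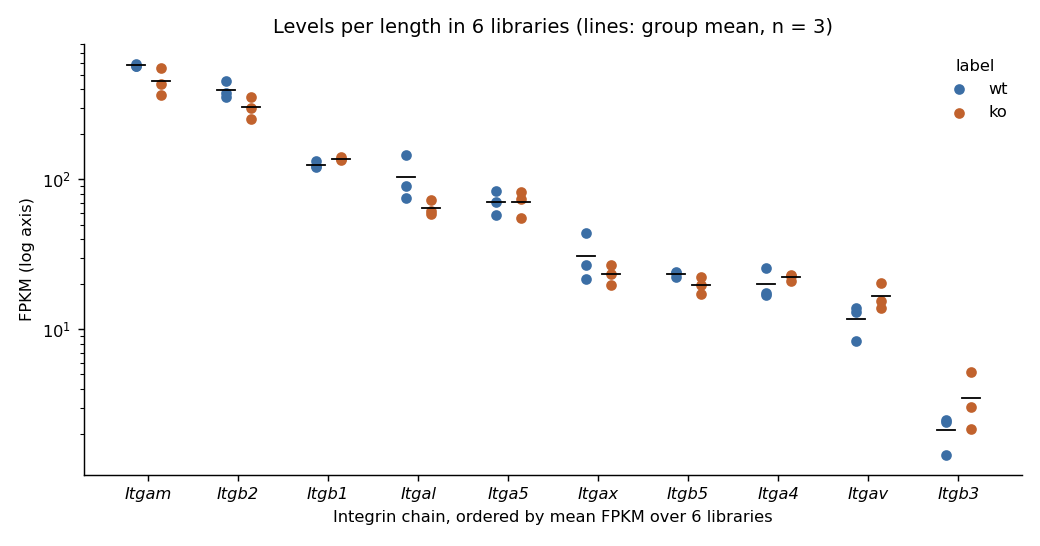
FPKM of the 10 integrin chains (log axis) in the 3 wt and 3 ko libraries, 1 point per library, with a line at each group mean. Itgam and Itgb2 lie between 254 and 593, and Itgb3 lies below the other 9 chains.

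For the comparison of ko with wt, none of the 10 chains passed an adjusted p of 0.05 in edgeR's quasi-likelihood test, nor did any of the 13884 genes tested (percent called 0). At an unadjusted p under 0.05, 2 of the 10 chains were called, both lower (Itgal and Itgb2), against 8.31% of all genes lower and 6.9% higher. DESeq2 on the 6 libraries called 0 of the 10 after adjustment, against 0.263% of its genes (0.0949% higher and 0.168% lower), and limma on FPKM called 0. Both had 3 chains (Itgam, Itgal and Itgb2) at an unadjusted p under 0.05. With DESeq2, 10.95% of 22377 genes passed that p in either direction. With limma, 19.98% of 13884 genes did so on log2(FPKM + 1) and 18.70% on log2(FPKM + 0.1). With edgeR, where 15.2% of all genes were called in either direction over 6 libraries, the count of chains was 1 (Itgal) without wt1, beside 12.2% of all genes. It was 0 without ko1 and 0 without ko2, beside 5.49% and 4.75% of all genes, and 4 without ko3, beside 17.3%. In 2 chains (Itgam and Itgal) each library labelled ko was below each wt library, and in 1 (Itgav) each was above, where 12.6% and 13.3% of all genes tested did so (25.9% in either direction). The median log2 fold change of the 10 chains was -0.27, beside 0.02 for all genes tested.

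**Figure D2:**
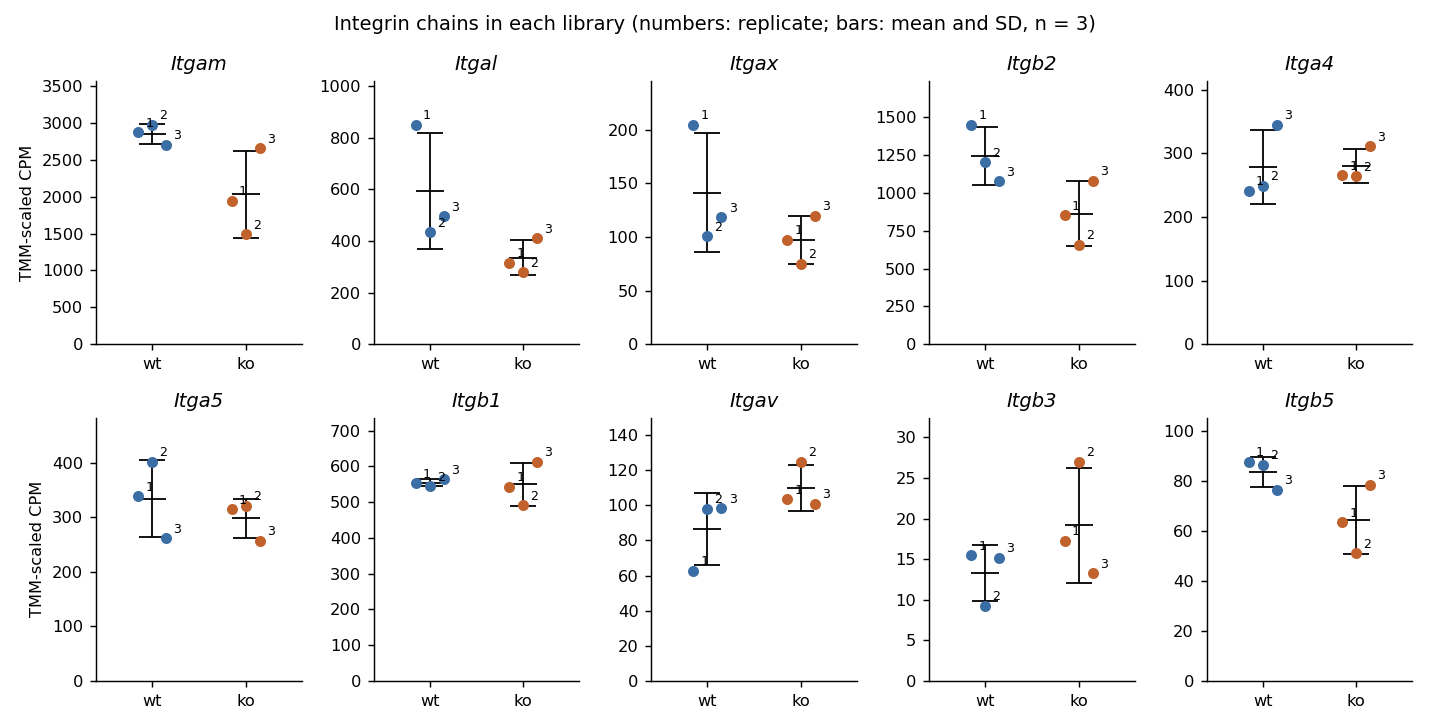
TMM-scaled CPM of each integrin chain in the wt and ko libraries; numbers mark the replicate and bars show the mean and SD of 3 libraries. The 4 chains of the beta2 family, Itgb1 and Itgb5 are lowest in ko2, while Itgav and Itgb3 are highest there.

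The 4 chains of the beta2 family all had lower estimates in the libraries labelled ko, with log2 fold changes from -0.82 to -0.49 and a median of -0.53. Itgam (NCBI Gene 16409, chromosome 7 from 128062640 to 128118491 in GRCm38, plus strand) encodes the alpha chain of a complement receptor of myeloid cells. Its level was 2877, 2975 and 2708 CPM in wt1, wt2 and wt3 and 1945, 1492 and 2660 in ko1, ko2 and ko3. The wt libraries were close together and ko3 stood just below them, with ko1 and ko2 lower. The means were 2853 ± 135 and 2033 ± 589 (SD, n = 3 each). This gave a log2 fold change of -0.49 (SE 0.22, adjusted p = 0.331), which was -0.32 without ko2 and -0.74 without ko3. Itgam overlaps the annotated gene Gm49368 on the same strand, and how shared reads were counted is not stated.

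PU.1, the factor that defines the myeloid lineage, binds purine-rich sites with the core GAGGAA, and the promoter of Itgam is a textbook target of it. The core was searched on both strands from 250 bases before to 50 after each start in the RefSeq promoters of GRCm38.p6. Of the 10 chains, 7 had a promoter there (not Itgal, Itgb2 or Itgb3), and 4 of these 7 held the core (Itgam, Itgav, Itgb1 and Itga5), against 28.3% of 32851 promoters. The matches of Itgam and of Itgav, whose groups did not overlap, in opposite directions, are shown on the plus strand, which is that of both genes, with the core or its reverse complement in capitals.
Itgam, chr7:128062547-128062570, first capital at -84: tttctcccgGAGGAAggctacaga
Itgam, chr7:128062616-128062639, first capital at -15: catagctttTTCCTCatacttctc
Itgam, chr7:128062663-128062686, first capital at 33: cttggtggcTTCCTCaaagtgtct
Itgav, chr2:83724170-83724193, first capital at -218: aagtgcctgGAGGAAccagggaac
Itgav, chr2:83724381-83724404, first capital at -7: gagcgcgacTTCCTCtttcggcgg
The palindrome TTCNNNGAA, bound by STAT factors, was found in 0 of the 7 promoters and in 8.3% of all promoters. A match is a description of these letters in this window, not of binding.

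Itgal (NCBI Gene 16408, chromosome 7 from 127296260 to 127335138, plus strand) encodes the alpha chain of the leukocyte receptor for ICAMs. Its level was 850 CPM in wt1, 435 in wt2 and 496 in wt3, against 316, 280 and 411 in ko1, ko2 and ko3. The groups did not overlap, and wt1 stood far above the other wt libraries. The log2 fold change was -0.82 (SE 0.27, adjusted p = 0.328), the largest in size among the 10 chains, and was -0.47 when wt1 was left out. Itgax (NCBI Gene 16411, chromosome 7 from 128129547 to 128150657, plus strand), a chain also used as a marker of dendritic cells, showed the same high value in wt1. It stood at 204, 101 and 119 CPM in wt1, wt2 and wt3 and at 97.2, 75.1 and 120 in ko1, ko2 and ko3. The groups overlapped, and the log2 fold change of -0.54 (SE 0.29, adjusted p = 0.356) was -0.17 without wt1. The dendritic cell markers summed to 260 to 436 CPM in the wt libraries and 319 to 409 in those labelled ko, with 10 of 10 in the table and a median log2 fold change of -0.08.

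Itgb2 (NCBI Gene 16414, chromosome 10 from 77530252 to 77565708, plus strand) is the beta chain that these 3 alpha chains share. Its level was 1450, 1203 and 1078 CPM in wt1, wt2 and wt3 and 852, 659 and 1082 in ko1, ko2 and ko3. The groups overlapped only through wt3 and ko3, which stood at nearly the same level. The means were 1244 ± 189 and 864 ± 212 CPM (SD, n = 3 each), and the log2 fold change was -0.53 (SE 0.21, adjusted p = 0.328), or -0.40 without wt1.

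The estimate of Itgb2 was close in size to that of the macrophage markers, of which 12 of 12 had a lower estimate (median -0.55). The neutrophil markers, from another cell type that carries the beta2 chains, had a lower estimate in 11 of 11 tested, with a median of -0.78. At an unadjusted p under 0.05 in edgeR, 8 of the 12 macrophage and 6 of the 11 neutrophil markers were lower, against 8.31% of all genes tested. The part of either cell type in the beta2 estimates was not tested. Libraries were also scaled to the summed macrophage markers in place of TMM. Lyz2 alone gave most of that sum (14144 of 18803 CPM in wt1 and 5667 of 7730 in ko2), and a sum without Lyz2 was not tested. With the macrophage scaling, the median log2 fold change of all genes tested was 0.63 in place of 0.02. The log2 fold changes became 0.05 for Itgam, 0.08 for Itgax, 0.05 for Itgb2 and -0.20 for Itgal, so the lower estimates of Itgam, Itgax and Itgb2 did not hold relative to the summed macrophage markers. Relative to the median of all genes under that scaling, they were -0.58, -0.55, -0.58 and -0.83 in the same order. Under it, 3 of the 10 chains were called at an unadjusted p under 0.05, all higher (Itgb1, Itgav and Itgb3), against 29.3% of all genes higher and 0.0792% lower.

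The call of these chains depended on the libraries and the tool together. On the first principal component ko3 was nearest to wt2 and wt3 among the libraries labelled ko, at 11.7 against 41.4 in ko1 and 52.0 in ko2. With wt1 and ko3 left out, 57.7% of all genes did not overlap between the labels, against 25.9% over 6 libraries. The p-values of this setting are conditional on that choice of libraries. Without wt1 and ko3, DESeq2 called 5 of the 10 chains after adjustment. Of these, 4 were lower (Itgam, Itgal, Itgb2 and Itgb5), against 6.23% of its genes, and 1 was higher (Itgb3), against 4.42%. The log2 fold change of Itgam was then -0.77 (adjusted p = 0.00153) and that of Itgb2 was -0.64 (adjusted p = 0.0101). edgeR on the same 4 libraries gave -0.73 for Itgam (adjusted p = 0.113) and -0.60 for Itgb2 (adjusted p = 0.125), and called 0 chains after adjustment and 5 at an unadjusted p under 0.05, where 23.2% of all genes passed.

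**Figure D3:**
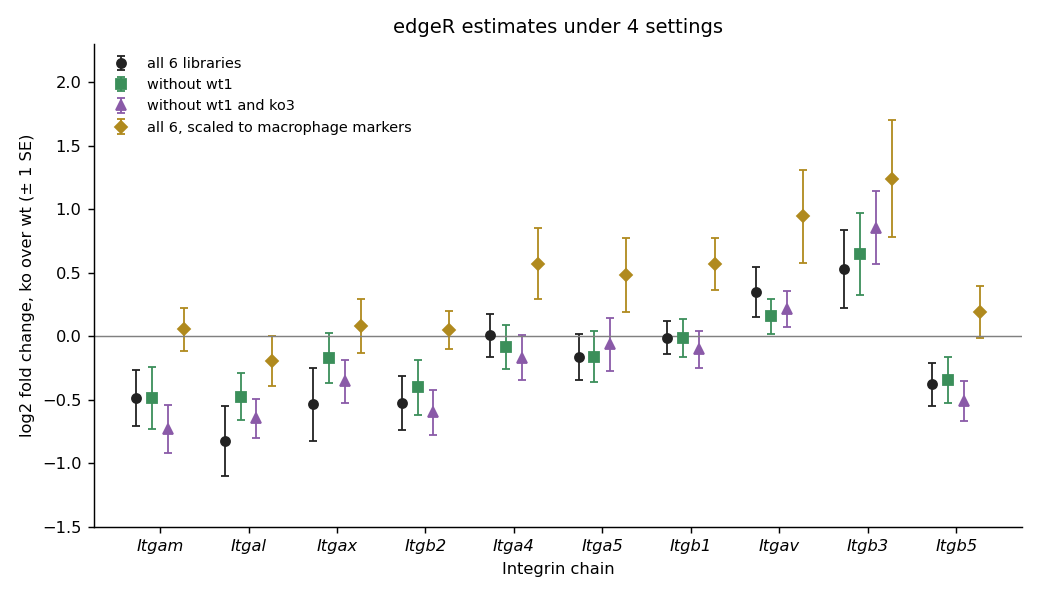
log2 fold change of ko over wt for each integrin chain from edgeR, with bars of 1 SE, over all 6 libraries, without wt1, without wt1 and ko3, and with scaling to the macrophage markers. The 4 beta2 chains, Itgb5, Itga5 and Itgb1 lie below 0 in the first 3 settings, and with the macrophage scaling 9 of the 10 chains lie above 0.

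Ratios of chains were then compared within each library, where scaling between libraries does not enter. There were 8 ratios, each tested with a two-sided exact permutation test, for which 3 against 3 libraries allow no p below 0.1. The summed FPKM of the 3 alpha chains was 1.68, 1.83 and 1.92 times that of Itgb2 in wt1, wt2 and wt3, and 1.73, 1.75 and 1.85 times in ko1, ko2 and ko3. The groups overlapped, with a log2 difference of -0.025 (exact permutation p = 0.8, adjusted p = 0.9), less than the SD of 0.099 between the wt libraries. The share of Itgam among the 3 alpha chains was 75.1% in wt1 and between 82.2% and 86.0% in the other 5 libraries. Itgal made up 19.2% in wt1 and 10.9% to 13.3% elsewhere. The composition of the alpha chains thus set wt1 apart and did not separate the labels. The log2 differences were -0.25 for Itgal over Itgam (exact permutation p = 0.7) and 0.034 for Itgax over Itgam (exact permutation p = 0.9), both with an adjusted p of 0.9.

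**Figure D4:**
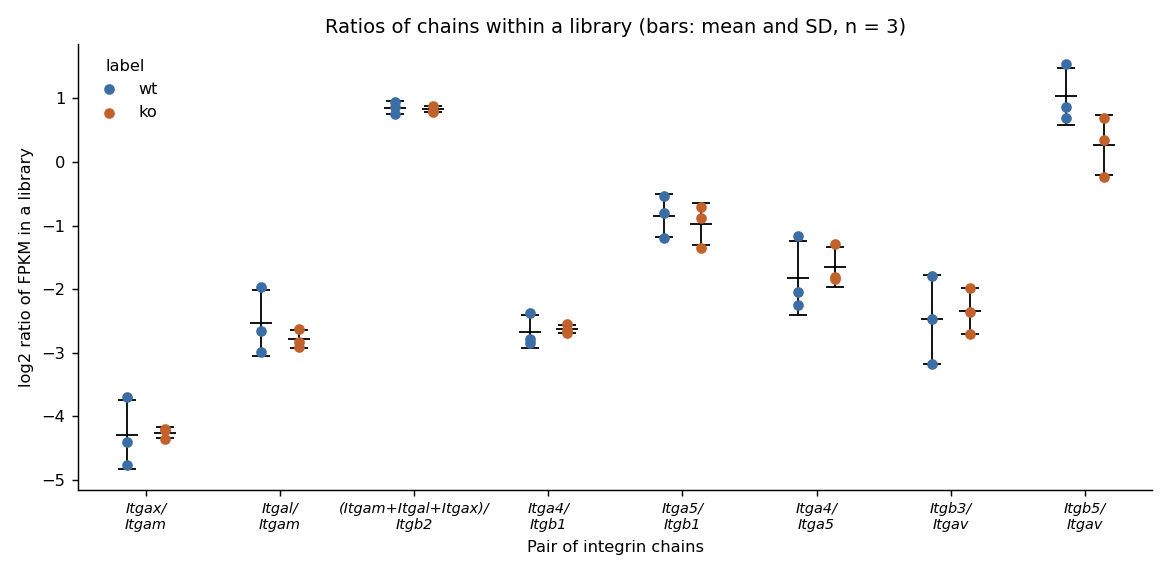
log2 ratio of the FPKM of integrin chains in the same library, 1 point per library, with the mean and SD of 3 libraries. The groups overlap in 7 of the 8 ratios, and in Itgb5 over Itgav they meet at 1.61 in wt3 and ko3, which is 0.69 on the log2 axis.

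The chains of the fibronectin and VCAM-1 receptors had estimates near 0 with TMM scaling. Itgb1 (NCBI Gene 16412, chromosome 8 from 128685654 to 128733200, plus strand), the most widely shared beta chain, was at 554, 545 and 565 CPM in wt1, wt2 and wt3 and at 544, 492 and 614 in ko1, ko2 and ko3. The wt libraries lay within the range of those labelled ko. Its log2 fold change was -0.012 (SE 0.13, 95% interval -0.26 to 0.24, adjusted p = 0.96). In FPKM, which carry no TMM factor, Itgb1 was at 123, 121 and 132 against 136, 134 and 142, with each library labelled ko above each wt library. In that unit 18.6% of all genes were separated upward and 6.88% downward, and the chains separated were Itgb1 and Itgav upward and Itgam, Itgal and Itgb2 downward.

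Itga4 (NCBI Gene 16401, chromosome 2 from 79255426 to 79333123, plus strand), the alpha chain of the VCAM-1 receptor, was at 242, 249.3 and 345 CPM in wt1, wt2 and wt3 and at 266, 264 and 311 in ko1, ko2 and ko3. The groups overlapped, and wt3 was the highest library, with a log2 fold change of 0.0086 (SE 0.17, 95% interval -0.32 to 0.34, adjusted p = 0.98). Cerkl, which overlaps Itga4 on the other strand, had 1 to 18 counts. Itga5 (NCBI Gene 16402, chromosome 15 from 103344286 to 103366763, minus strand) stood at 338, 402 and 262 CPM against 315, 321 and 257. The groups overlapped, with the lowest value in ko3. Its log2 fold change was -0.17 (SE 0.18, 95% interval -0.52 to 0.19, adjusted p = 0.602). These intervals of all 3 chains include 0 and exclude a 2-fold change in either direction. This did not hold for all 3 when libraries were scaled to the macrophage markers, which gave 0.57 (SE 0.28) for Itga4, 0.48 (SE 0.29) for Itga5 and 0.57 (SE 0.21) for Itgb1. The estimate of Itga5 was -0.33 without wt3 and -0.016 without wt2. Within a library, Itga4 was 0.138 to 0.194 of Itgb1 in FPKM, and Itga5 was 0.393 to 0.692 of Itgb1. The log2 differences between labels were 0.042 and -0.13, and that of Itga4 over Itga5 was 0.17 (exact permutation p = 0.9, 0.6 and 0.6, each adjusted p = 0.9).

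The chains of the vitronectin receptors differed in direction. Itgav (NCBI Gene 16410, chromosome 2 from 83724397 to 83806916, plus strand), their shared alpha chain, was at 62.6, 98.1 and 98.3 CPM in wt1, wt2 and wt3 and at 104, 125 and 101 in ko1, ko2 and ko3. Each library labelled ko was above each wt library, though ko3 exceeded wt2 and wt3 by little and wt1 was well below the rest. Its log2 fold change was 0.35 (SE 0.20, adjusted p = 0.366) and 0.16 without wt1. Itgb3 (NCBI Gene 16416, chromosome 11 from 104608000 to 104670476, plus strand) also forms the fibrinogen receptor of platelets with Itga2b. It stood at 15.5, 9.25 and 15.2 CPM against 17.3, 27.02 and 13.2, so the groups overlapped and ko2 was the highest. The log2 fold change of 0.53 (SE 0.31, adjusted p = 0.378) was 0.19 without ko2, 0.32 without wt2 and 0.85 without wt1 and ko3. Of the 9 platelet and megakaryocyte markers in the table, 5 had no counts in at least 1 library. Itga2b stood at 0.67 to 1.66 CPM. The sum of that list, nearly all from Pf4 and Ppbp, was 339 to 433 CPM in the wt libraries and 290 to 463 in those labelled ko.

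Itgb5 (NCBI Gene 16419, chromosome 16 from 33829665 to 33949338, plus strand) was at 87.7, 86.4 and 76.4 CPM in wt1, wt2 and wt3 and at 63.5, 51.0 and 78.4 in ko1, ko2 and ko3. The groups overlapped through ko3, which stood above wt3. Its log2 fold change was -0.38 (SE 0.17, adjusted p = 0.331), or -0.24 without ko2. Across the 6 libraries Itgb5 was closer to Itgam and Itgb2 than to its partner Itgav. The root mean square difference of log2 CPM, each centred over the 6 libraries, was 0.097 between Itgb5 and Itgam, the closest of all pairs among the 10 chains, and 0.112 between Itgb5 and Itgb2, against 0.535 between Itgb5 and Itgav. Itgb5 was farther from the other beta2 chains, at 0.295 from Itgax and 0.337 from Itgal, than from Itgb1, at 0.221. The FPKM of Itgb5 was 2.90, 1.83 and 1.61 times that of Itgav in wt1, wt2 and wt3, and 1.27, 0.847 and 1.61 times in ko1, ko2 and ko3. The values of wt3 and ko3 were nearly equal. The log2 difference was -0.77 (exact permutation p = 0.1, the smallest possible, adjusted p = 0.8 over 8 ratios). Itgb3 over Itgav had a log2 difference of 0.13 and overlapping groups (exact permutation p = 0.9, adjusted p = 0.9).

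By the same measure, the genes with at least 10 CPM most like Itgb2 over the 6 libraries were Tspan5, Fcgr4, Rhog and Ctsh, with differences of 0.0288 to 0.0326 against a median of 0.354 over 8091 genes. Those most like Itgb1 were Sri, Srgap2, Spop and Rheb (0.0230 to 0.0327, median 0.223), and those most like Itgav included Raph1, Ide and Fam133b (0.0227 to 0.0554, median 0.395).

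Of 17 other integrin chains, 14 were tested, and 0 passed the adjusted threshold. At an unadjusted p under 0.05, 2 were lower and 1 higher, against 8.31% and 6.9% of all genes tested. Without overlap, 2 were below and 2 above, against 12.6% and 13.3% of all genes tested. Itgb7, which pairs with Itga4 as a gut homing receptor and with Itgae, was the most abundant of these other chains, at 598, 476 and 440 CPM in wt1, wt2 and wt3 and 394, 354 and 407 in ko1, ko2 and ko3. The groups did not overlap, and the log2 fold change was -0.39 (SE 0.15, adjusted p = 0.328). The groups also did not overlap in Itga9 (log2 fold change -0.72, SE 0.30), a partner of Itgb1 at 3.32 to 8.66 CPM. Each library labelled ko was above each wt library in Itgb8 (1.16, SE 0.48), which activates latent TGF-beta with Itgav and stood at 0.53 to 3.80 CPM, and in Itga6 (0.66, SE 0.41), a laminin receptor chain at 6.69 to 28.7 CPM. Without wt1, which held the lowest value of Itga6 and the highest of Itgb7, the estimates were 0.28 for Itga6 and -0.25 for Itgb7. The alpha chain Itgad, the remaining partner of Itgb2, was at most 0.33 CPM and was not tested.

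The ligands of these receptors had no common direction. Of 27 listed genes, 20 were tested, 11 with a higher and 9 with a lower estimate, and 0 passed the adjusted threshold. At an unadjusted p under 0.05, 2 were higher and 3 lower, against 6.9% and 8.31% of all genes tested. Without overlap, 1 was above and 3 below, against 13.3% and 12.6% of all genes tested. The median log2 fold change was 0.16. Without wt1 it was 0.03, with 10 estimates higher and 10 lower. C3, the source of the complement fragment bound by the Itgam receptor, was at 1087, 857 and 732 CPM in wt1, wt2 and wt3 and at 534, 399 and 618 in ko1, ko2 and ko3, below each wt library (log2 fold change -0.79, SE 0.21, adjusted p = 0.328). Tgfb1, whose latent form binds alphaV integrins, was also lower without overlap (-0.67, SE 0.22). Mfge8, a bridge between dying cells and alphaV integrins, stood at 26.9 to 33.6 CPM in the wt libraries and at 36.6 to 43.9 in those labelled ko (0.46, SE 0.14). Col1a1, a matrix collagen of fibroblasts, was at 0.56 to 5.52 CPM (1.82, SE 0.64) with overlapping groups. The fibroblast markers, of which Col1a1 is 1 of 14, summed to 63.3 to 745 CPM in the wt libraries and 565 to 1067 in those labelled ko.

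For the classical ligands the groups overlapped. Icam1, the ligand of the Itgal and Itgam receptors, was at 189 to 312 CPM in the wt libraries and 169 to 198 in those labelled ko (log2 fold change -0.35, SE 0.20). Vcam1, the ligand of the Itga4 receptor, was low throughout, at 3.97 to 18.5 CPM (0.59, SE 0.44). Fibronectin, Fn1, was at 4133 to 5753 CPM and 2400 to 4293 CPM (-0.48, SE 0.25). Osteopontin, Spp1, a ligand of Itgav and Itga4 receptors, was at 1159 to 1563 and 1469 to 1854 CPM (0.28, SE 0.17). Without wt1 the estimates were 0.20 for Vcam1, -0.31 for Fn1 and 0.16 for Spp1.

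Among 27 tested genes of integrin activation and adaptors, 22 had a lower estimate, with a median log2 fold change of -0.23. At an unadjusted p under 0.05, 6 were lower and 0 higher, and 0 passed the adjusted threshold. In 9 of the 27 each library labelled ko was below each wt library, and in 1 above. Over all genes tested, 8.31% were lower and 6.9% higher at that p, and 12.6% were below and 13.3% above without overlap. Talin, Tln1, which binds beta chain tails and switches integrins on, was at 1633, 1087 and 1113 CPM in wt1, wt2 and wt3 and at 683, 566 and 892 in ko1, ko2 and ko3. The groups did not overlap (log2 fold change -0.84, SE 0.23, adjusted p = 0.328). Kindlin-3, Fermt3, the blood cell partner of talin, was at 248 to 359 CPM against 143 to 229 (-0.67, SE 0.22). Sipa1, which turns off the GTPase Rap1, was lower too (-0.82, SE 0.18), as was Apbb1ip, which links Rap1 to talin (-0.37, SE 0.13), so genes that promote and genes that limit activation were both among those without overlap.

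Among 27 tested genes that signal from bound integrins, 23 had a lower estimate, with a median of -0.36. At an unadjusted p under 0.05, 9 were lower and 1 higher, 0 passed the adjusted threshold, and 11 were below and 2 above without overlap, against the same shares of all genes. Vav1, an exchange factor for Rac, was at 141 to 211 CPM in the wt libraries and 85.1 to 113 in those labelled ko (log2 fold change -0.75, SE 0.19, adjusted p = 0.328). The PI3-kinase subunits of leukocytes, Pik3cg and Pik3cd, had log2 fold changes of -0.58 (SE 0.16) and -0.74 (SE 0.21), without overlap. Plcg1, a phospholipase, had higher values, at 10.3 to 18.1 CPM against 19.7 to 32.8 (0.87, SE 0.26). For the kinase Syk (-0.24, SE 0.15) and the adaptor Tyrobp (-0.45, SE 0.21), which carry the signal of beta2 integrins, the groups overlapped, and Syk was at -0.14 without wt1. Without wt1, the activation list had 21 of 27 and the signalling list 22 of 27 lower estimates. At an unadjusted p under 0.05, 4 were then lower and 1 higher in the activation list, and 7 lower and 2 higher in the signalling list. In that setting 12.2% of all genes passed in either direction. Scaled to the macrophage markers, the medians of the activation and signalling lists were 0.37 and 0.27. Both were above 0 and below the median of 0.63 of all genes tested.

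**Figure D5:**
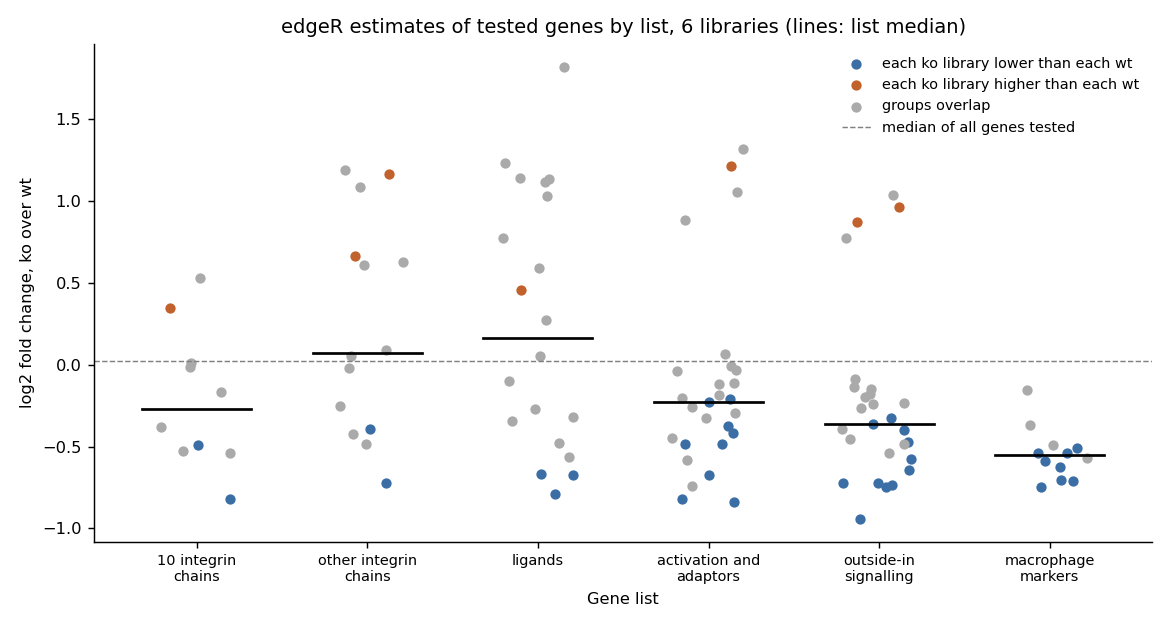
log2 fold change of ko over wt for the tested genes of each list over 6 libraries, 1 point per gene, colored by whether the groups overlap; solid lines mark list medians and the dashed line the median of all genes tested, 0.02. The macrophage markers (median -0.55), the signalling genes (-0.36) and the activation genes (-0.23) lie mostly below the dashed line.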

How the data were processed

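The 10 members and all lists were chosen with earlier results of these data known. Raw counts of each gene were deposited by the authors as whole numbers with no scaling. The authors also gave FPKM, which came from these counts with a fixed length for every gene and with library totals, not TMM. The submitters' processing notes name mm10. The aligner, counter, annotation and strand setting are not given in the sources used here. Coordinates are GENCODE on GRCm38, matched by symbol. Each measured column was mapped to a library by its title.

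Counts were fitted for all genes with edgeR 4.0.16 in R 4.3.3 (filterByExpr, TMM, quasi-likelihood test, Benjamini-Hochberg adjustment), without a block. The paper gives an unpaired test between groups for its experiments in general and names no count model, and design and test here follow the unit of the files. SEs were taken from the fold change and its F statistic, and 95% intervals use the normal quantile, which is narrower than the quasi-likelihood test allows. The script was tested on simulated counts. DESeq2 1.42.0, limma 3.58.1 on log2(FPKM + 1) or log2(FPKM + 0.1), other scalings, filters, the replicate block and omitted libraries were alternatives. Named genes were the 10 chains and Npm1, other chains without overlap, the 4 genes of smallest p in each partner list, 8 set ligands and adaptors, and the 4 genes most like Itgb2, Itgb1 and Itgav, of which 1 is not reported here.

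Libraries of 1 group differed by more than sampling noise (chi-square per gene 34.3 to 146), so none was the same library deposited again, which does not show separate animals. The labels call them biological samples without naming animals, and the paper names fewer mice than libraries for 1 panel, so p-values measure the spread between these samples, which may be partly technical.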

Additional observations from a re-analysis of the deposited data

How the results depend on the processing

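Of the 10 chains, Itgal, Itgav and Itgb3 kept their direction in all 17 alternatives, and adjusted p-values ranged from 0.00153 to 0.811 for Itgam. No chain passed the adjusted threshold in any alternative other than DESeq2 without wt1 and ko3, which called 5 chains and 1284 genes. DESeq2 on 6 libraries called 36 genes and 0 chains. At an unadjusted p under 0.05, against 2 chains, there were 5 without a filter on low counts, 6 with DESeq2 without wt1 and ko3, and 0 to 5 with edgeR when libraries were left out. The shares of all genes at that p, against 15.2% of 13884, were 13.0% of 22377, 14.3% of 21760 and 4.75% to 23.2%, in that order. The 13.0% and 14.3% are over genes not filtered on low counts, so they are not on the same base as the 15.2%. With edgeR and its filter, the share without wt1 and ko3 was 23.2% of 14174. Chains without overlap, 3 over the 6 libraries, were 2 with macrophage scaling, 5 in FPKM, 7 without wt3, 8 without ko3 or without wt1 and ko3 (either tool), and ranged from 3 to 8 when libraries were left out. Of all genes, 36.5%, 25.4%, 41.8%, 49.7% and 57.7% (DESeq2 59.8%) did not overlap in these settings, in that order. With wt1, wt2, ko1 or ko2 left out alone, 3 chains did not overlap, beside 31.5%, 43.5%, 29.6% and 30.0% of all genes. Libraries of the same number did not deviate together (correlations of deviations -0.241, 0.06 and -0.337). Under the replicate block, 1 chain (Itgal) passed an unadjusted p of 0.05 and 0 an adjusted one, and 1606 genes passed an unadjusted p of 0.05, against 2112.

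Scaling to the macrophage markers, which moved the median of all genes by 0.61, turned Itgam (0.053), Itgax (0.080), Itgb2 (0.051), Itga5 (0.48), Itgb1 (0.57) and Itgb5 (0.19) above 0. limma on log2(FPKM + 0.1) moved that median by 0.14. Near 0, Itga4 turned negative with RLE factors (-0.0054), without a filter (-0.0036), with DESeq2 (-0.012; without wt1 and ko3 -0.20) and among omitted libraries (-0.17 to 0.18). Itgb1 turned positive with upper quartile factors (0.022), with at least 10 counts in every library (0.015) and in limma (0.13 with either pseudocount), and ranged from -0.10 to 0.054 among omitted libraries. With libraries left out, 7 of the 8 ratios changed sign, with log2 differences from -0.21 to 0.33 (Itgax over Itgam), -0.47 to 0.035 (Itgal over Itgam), -0.078 to 0.020 (summed alpha chains over Itgb2), -0.050 to 0.19 (Itga4 over Itgb1), -0.31 to 0.052 (Itga5 over Itgb1), -0.040 to 0.50 (Itga4 over Itga5) and -0.22 to 0.48 (Itgb3 over Itgav). The cause was not tested.

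Without wt1 and ko3, chosen for the lists after the data were examined, genes at an unadjusted p under 0.05 numbered 6 in place of 3 (other chains), 11 in place of 5 (ligands), 12 in place of 6 (activation) and 19 in place of 10 (signalling). The share of all genes at that p rose as well, to 23.2% in place of 15.2%. Itgb3 had the lowest counts of the 10 chains (from 328), and the part of depth in its spread was not tested.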
